A study of Homo sapiens with 6 samples.

Results

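The genes described here are 10 feedback and target genes of the ERK mitogen-activated protein kinase (MAPK) pathway, out of 58735 genes in the deposited count table. They are the dual-specificity phosphatases DUSP4, DUSP5 and DUSP6, the Sprouty genes SPRY1, SPRY2 and SPRY4, the SPRED genes SPRED1 and SPRED2, and the ERK output genes PHLDA1 and ETV5. Members were taken by gene symbol, and 10 of 10 were present in the table and passed the filter on low counts, which left 14844 genes for testing. RNA-seq was run on Mum-2b cells, an established human line labelled as uveal melanoma. Control cells were labelled wild type (titles NC, n = 3), and the other cells carried a knockdown of NELFCD (titles shRNA1, n = 3). NELFCD encodes a subunit of the negative elongation factor, a complex that keeps RNA polymerase II paused just downstream of the start site. A single hairpin number appears in the titles, so loss of NELFCD and off-target action of the hairpin cannot be told apart. The labels do not say whether the controls carried a hairpin, nor whether replicates were separate cultures, so the p-values measure the spread between these libraries, which may be technical.

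Growth factor receptors activate RAS, which activates the RAF, MEK and ERK kinases in turn. Active ERK induces the transcripts of its own brakes. DUSP5 and DUSP6 remove the activating phosphates from ERK in the nucleus and the cytoplasm respectively, and DUSP4 does so for ERK and related kinases in the nucleus. Sprouty proteins act upstream, between receptor and RAF, and SPRED proteins bring the RAS inactivator neurofibromin to the membrane. ETV5 is an ETS transcription factor and PHLDA1 a pleckstrin homology-like protein, and both transcripts are used as readouts of ERK output. In uveal melanoma the pathway is commonly driven by mutant Gq proteins.

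Without the replicate number in the model, edgeR called 0 of 10 members and 0% of all genes tested. At an unadjusted p under 0.05 there were 2 members, SPRY1 and SPRED2, beside 954 genes (6.43%). DESeq2 without the number called 0 members and 151 of 14844 genes, NELFCD among them (adjusted p = 0.015). With limma-voom and no number, 0 members and 0 genes were called. Replicate 1 of both groups stood apart from replicates 2 and 3, while numbers 2 and 3 were not told apart (control 3 correlated at 0.693 with knockdown 2 and at 0.685 with knockdown 3). With the replicate number as a block, edgeR called 4 of 10 members at an adjusted p under 0.05, against 13.5% of all genes tested. SPRY1 rose (5.48% of all genes rose), and PHLDA1, SPRED2 and DUSP5 fell (8.01% fell). DUSP4, DUSP6, SPRY2, SPRY4, SPRED1 and ETV5 did not pass. The median log2 fold change over the 10 members was -0.19 with the block, where the median over all genes tested was 0.0. The same 4 members passed when the block was fitted in DESeq2, where 9.07% of all genes passed (2.98% higher, 6.09% lower), and in limma-voom, where 14.2% did (5.75% higher, 8.46% lower). In bulk RNA, a lower level per cell and fewer cells with the transcript cannot be told apart.

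NELFCD itself stood at 65.5, 88.3 and 83.5 CPM (counts scaled to library size) in control replicates 1 to 3 and at 20.7, 37.4 and 40.3 CPM in knockdown replicates 1 to 3. The groups did not overlap, and 41.5% of the control mean remained (exact two-sided permutation p = 0.1, the smallest that 3 against 3 libraries allow). Its log2 fold change was -1.30 ± 0.109 (SE) in edgeR's blocked fit (adjusted p = 0.00046) and -1.27 ± 0.281 without the block (adjusted p = 0.53). Library totals were 14306733 to 16656630 counts. Of 8 melanocyte lineage markers, 5 were under 1 CPM in every library, among them TYR, DCT and SOX10, and the highest was TYRP1 at up to 9.17 CPM, so the labelled lineage was weakly marked. The 8 summed to 7.50 to 10.8 CPM in controls and 7.61 to 18.3 CPM in knockdowns. Leukocyte markers (4 genes) summed to at most 0.343 CPM and fibroblast markers (5 genes) to at most 2.05 CPM in any library. The 5 epithelial markers summed to 686.5 to 1302 CPM in controls and 1058 to 1462 CPM in knockdowns. KRT8 and KRT18 carried nearly all of this sum, and EPCAM, CDH1 and KRT19 were under 1 CPM in every library. KRT18 rose (364 to 499.5 CPM, blocked log2 fold change 0.49, edgeR adjusted p = 0.0093) and KRT8 did not pass. KRT19 went the other way near the floor, from a mean of 0.649 to 0.087 CPM, and was below the filter. The opposite-strand gene KRT8 shares 16.3% of the exonic bases of KRT18. Of 4 endothelial markers, CDH5 carried nearly all of a sum of 125.5 to 165.5 CPM in controls and 54.3 to 57.7 CPM in knockdowns. The part of these markers in the results was not tested.

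Sequences just upstream of an annotated start are shown for SPRED2, which fell, for SPRY1, which rose, and for SPRY2, whose pairs lay on both sides of 0. Promoter windows from RefSeq (GRCh38.p14) were found for 7 of 10 members, and bases inside any GENCODE release 29 exon were left out, which left 212 bases for SPRED2 and 250 for SPRY1 and SPRY2 at the first start of each. Sequences read 5′ to 3′ on the gene's strand, and capitals mark matches to the GC box on either strand. The intervals are chr2:65432638-65432849 (minus strand) for SPRED2, chr4:123396545-123396794 (plus strand) for SPRY1 and chr13:80341127-80341376 (minus strand) for SPRY2.
SPRED2: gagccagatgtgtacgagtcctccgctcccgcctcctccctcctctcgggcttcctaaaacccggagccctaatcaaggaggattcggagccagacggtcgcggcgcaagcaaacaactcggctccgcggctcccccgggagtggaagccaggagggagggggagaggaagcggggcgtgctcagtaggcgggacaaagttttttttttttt
SPRY1: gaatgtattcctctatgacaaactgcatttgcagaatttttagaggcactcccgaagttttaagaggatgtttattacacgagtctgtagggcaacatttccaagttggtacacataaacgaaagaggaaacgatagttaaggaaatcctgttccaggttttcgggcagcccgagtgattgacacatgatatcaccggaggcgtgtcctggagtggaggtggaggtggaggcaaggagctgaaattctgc
SPRY2: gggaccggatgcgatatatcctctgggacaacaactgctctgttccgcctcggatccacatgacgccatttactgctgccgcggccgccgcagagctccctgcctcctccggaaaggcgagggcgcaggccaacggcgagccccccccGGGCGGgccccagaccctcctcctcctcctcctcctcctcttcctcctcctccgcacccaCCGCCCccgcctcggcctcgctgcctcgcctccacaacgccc

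Their GC content was 61.8% in SPRED2, 45.6% in SPRY1 and 70.4% in SPRY2. The GC box (GGGCGG) matched 2 times in SPRY2 and 0 times in the SPRED2 and SPRY1 windows, while 42.6% of 35116 upstream windows of 250 bases in the table hold it. The ETS core CCGGAAG (8.52% of windows), the AP-1 site TGANTCA (6.57%), the CRE TGACGTCA (1.65%) and TATAAA (10.7%), searched on both strands, had 0 matches in these 3 windows. A match or its absence describes only these letters in these windows.

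Per unit length, the order of levels in control cells ran from PHLDA1 to SPRY1. The deposited FPKM (fragments scaled to gene length and library size) averaged 79.3 ± 55.1 for PHLDA1 and 48.6 ± 32.3 for SPRY4 (SD, n = 3), whose libraries overlapped. ETV5 (28.3 ± 1.47), SPRY2 (24.4 ± 13.97), DUSP5 (22.1 ± 6.16) and SPRED1 (21.5 ± 2.15) came next, and each overlapped its neighbour in that order. SPRED2 followed at 16.8 ± 1.14 FPKM, below every SPRED1 library, and DUSP4 (11.7 ± 3.15) and DUSP6 (10.9 ± 2.07) overlapped each other. SPRY1 was lowest at 0.635 ± 0.161 FPKM. In the knockdown the order was the same except that SPRED1 (19.9 FPKM) stood above SPRY2 (19.03) and DUSP5 (17.1).

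**Figure D1:**
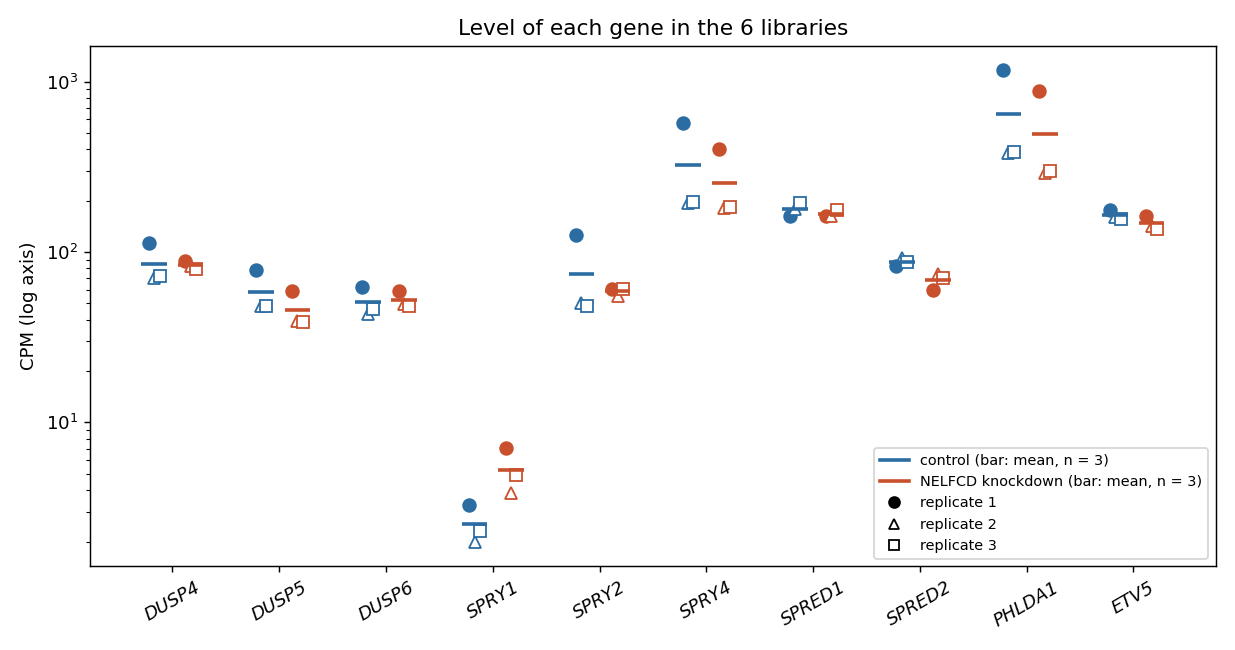
CPM of the 10 genes (log axis) in each of the 6 libraries, with control in blue, knockdown in red, replicate 1 filled and the mean as a bar. Replicate 1 of both groups lies far above replicates 2 and 3 for PHLDA1 and SPRY4, and the groups are apart in every library for SPRY1 and SPRED2 only.

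Among the phosphatases DUSP5 fell, and neither DUSP4 nor DUSP6 passed. DUSP5 (ENSG00000138166, chromosome 10, 110497838 to 110511544, hg38, plus strand) was at 77.9, 48.3 and 48.3 CPM in control replicates 1 to 3 and at 58.8, 39.4 and 38.7 CPM in knockdown replicates 1 to 3. Each knockdown library lay below the control of its number, while knockdown replicate 1 lay above control replicates 2 and 3, so the groups overlapped. The mean went from 58.2 ± 17.1 to 45.6 ± 11.4 CPM (SD, n = 3). By pair the log2 difference was -0.41, -0.29 and -0.32, and edgeR's blocked log2 fold change was -0.34 ± 0.070 (SE, adjusted p = 0.016), while without the block it was -0.35 ± 0.27 (adjusted p = 1) and without control replicate 1 it was -0.08.

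DUSP6 (ENSG00000139318, chromosome 12, 89347232 to 89353271, minus strand), the cytoplasmic ERK phosphatase, was at 62.6, 43.3 and 46.3 CPM in controls and 59.4, 49.3 and 48.3 CPM in knockdowns. These libraries overlapped, with replicate 1 highest in both groups. Its blocked log2 fold change in edgeR was 0.06 ± 0.077 (SE, adjusted p = 0.68), and the pairs differed by -0.08, 0.19 and 0.06. Of its exonic bases, 40.5% are shared with the opposite-strand gene AC024909.2, which had at most 14 counts in a library. DUSP4 (ENSG00000120875, chromosome 8) was at 113, 69.9 and 72.3 CPM in controls and 88.5, 82.3 and 79.8 CPM in knockdowns. In pair 1 the knockdown library was lower (log2 difference -0.35), and in pairs 2 and 3 it was higher (0.24 and 0.14). The blocked log2 fold change was 0.004 ± 0.107 (SE, edgeR adjusted p = 0.99), a value whose sign turned with RLE scaling.

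The Sprouty genes differed from one another in response. SPRY1 (ENSG00000164056, chromosome 4, 123396795 to 123403760, plus strand) had the largest change of the 10 and the lowest level. It was at 3.29, 1.98 and 2.31 CPM in controls and 7.05, 3.88 and 4.93 CPM in knockdowns, from raw counts of 48, 28 and 37 against 106, 64 and 72. Every knockdown library lay above every control library. With SPRED2 this made 2 of 10 members whose groups did not overlap, where 14.9% of all genes tested did not (7.52% with the knockdown above, 7.38% below). The mean went from 2.53 ± 0.680 to 5.29 ± 1.61 CPM (SD, n = 3), which is 209% of control. The pair differences of 1.10, 0.97 and 1.09 log2 were alike, and edgeR's blocked log2 fold change was 1.06 ± 0.200 (SE, adjusted p = 0.012), against 1.06 ± 0.335 without the block (adjusted p = 0.63). At this depth the 95% Poisson intervals of the nearest libraries, which cover counting error only, still overlapped (control replicate 1 at 2.43 to 4.36 CPM, knockdown replicate 2 at 2.99 to 4.95 CPM).

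SPRY2 (ENSG00000136158, chromosome 13, 80335976 to 80340951, minus strand) was at 125.4, 50.3 and 48.3 CPM in controls and 60.6, 55.3 and 60.3 CPM in knockdowns. Control replicate 1 alone stood apart, and the other 5 libraries lay between 48.3 and 60.6 CPM. The pair differences were -1.05, 0.14 and 0.32 log2, and the blocked log2 fold change was -0.21 ± 0.310 (SE, edgeR adjusted p = 0.71). SPRY4 (ENSG00000187678, chromosome 5, 142310427 to 142326455, minus strand) was at 575, 194.9 and 195.8 CPM in controls and 399.8, 182.2 and 184.4 CPM in knockdowns. It was lower in the knockdown of each pair, by -0.52, -0.10 and -0.09 log2, but the blocked value of -0.24 ± 0.088 (SE) did not pass in edgeR (adjusted p = 0.11). It passed with no filter on low counts (adjusted p = 0.0045) and with replicate 1 as a batch term (adjusted p = 0.046).

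Of the SPRED genes, SPRED2 fell and SPRED1 did not pass. SPRED2 (ENSG00000198369, chromosome 2, 65310851 to 65432637, minus strand) was at 82.2, 91.8 and 86.9 CPM in controls and 59.5, 74.3 and 70.7 CPM in knockdowns. Every knockdown library lay below every control library, and within each group replicate 1 was the lowest. The mean went from 86.95 ± 4.81 to 68.2 ± 7.72 CPM (SD, n = 3), which left 78.4%. Pair differences were -0.47, -0.31 and -0.30 log2, and the blocked log2 fold change was -0.36 ± 0.067 (SE, edgeR adjusted p = 0.012), against -0.35 ± 0.133 without the block (adjusted p = 0.71). SPRED1 (ENSG00000166068, chromosome 15, 38252326 to 38357249, plus strand) was at 161.5, 179 and 193 CPM in controls and 161.5, 163.0 and 176 CPM in knockdowns. Pair 1 was level and pairs 2 and 3 were slightly lower in the knockdown, by -0.14 and -0.13 log2. Its blocked log2 fold change was -0.09 ± 0.061 (SE, edgeR adjusted p = 0.37).

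PHLDA1 fell and ETV5 did not pass. PHLDA1 (ENSG00000139289, chromosome 12, 76025447 to 76033932, minus strand), the most abundant of the 10, was at 1175, 379.9 and 383.3 CPM in controls and 886, 290.9 and 299.6 CPM in knockdowns. Replicate 1 of both groups lay far above the rest, so the groups overlapped, but within each number the knockdown library was the lower by a similar ratio. Pair differences were -0.41, -0.39 and -0.36 log2. The blocked log2 fold change was -0.38 ± 0.054 (SE, edgeR adjusted p = 0.004), and without the block it was -0.39 ± 0.643 (adjusted p = 1). Opposite-strand genes share 16.5% of its exonic bases, and they had at most 3 counts in a library. ETV5 (ENSG00000244405, chromosome 3, 186046308 to 186110318, minus strand) was at 176.5, 161 and 155.8 CPM in controls and 161.6, 142.9 and 137 CPM in knockdowns. It was lower in each pair (-0.13, -0.18 and -0.18 log2), and its blocked log2 fold change was -0.16 ± 0.058 (SE, edgeR adjusted p = 0.099). With replicate 1 as a batch term it passed (adjusted p = 0.046).

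**Figure D2:**
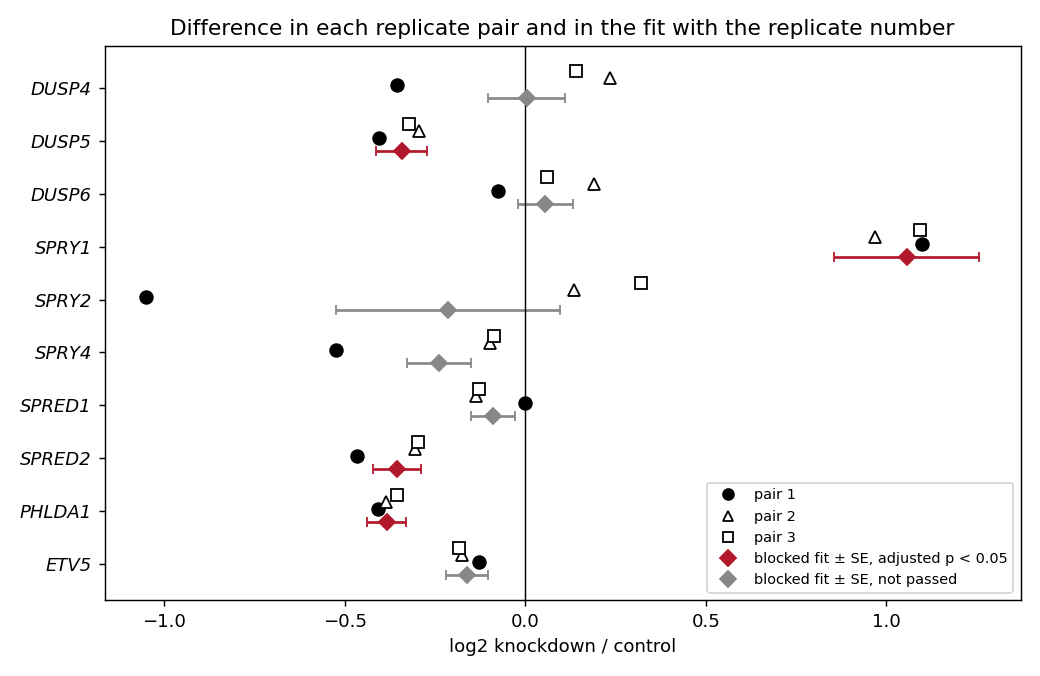
Log2 ratio of knockdown to control in each replicate pair (black markers) and in edgeR's fit with the replicate number (diamonds with SE, red where the adjusted p was under 0.05). The 3 pairs lie close together for PHLDA1, DUSP5 and SPRY1, and also for ETV5, which did not pass. Pair 1 lies apart for SPRY2, SPRY4 and DUSP4.

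Across the set, 5 of 10 members (DUSP5, SPRY4, SPRED2, PHLDA1 and ETV5) were lower in the knockdown of all 3 pairs, where 26.8% of all genes tested were, and SPRY1 was higher in all 3, where 25.9% were. The pairs lay on both sides of 0 for DUSP4, DUSP6 and SPRY2, and SPRED1 was level in pair 1. Calls depended on which pairs were used. Without pair 2 only SPRY1 passed in edgeR's blocked fit, with adjusted p of 0.052 for PHLDA1, 0.058 for SPRED2 and 0.069 for DUSP5. The share of all genes called in that fit is not given here, so the loss of calls cannot be read as particular to these members. In replicates 2 and 3 alone, without a block, edgeR called 8 of 10 members, against 25.3% of all genes (11.7% higher, 13.7% lower). There SPRY1, SPRY2 (log2 fold change 0.23, adjusted p = 0.0097) and DUSP4 (0.19, adjusted p = 0.012) rose. PHLDA1, DUSP5, SPRED2, ETV5 (-0.18, adjusted p = 0.0017) and SPRED1 (-0.14, adjusted p = 0.017) fell. SPRY4 (-0.09, adjusted p = 0.09) and DUSP6 (0.12, adjusted p = 0.23) did not pass. These 4 libraries differ little within a group, and the p-values rest on that small spread.

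The difference between pair 1 and the other pairs was fitted as an interaction of knockdown and replicate 1 in edgeR. Pair 1 is 1 control and 1 knockdown library, assumed to vary as little as replicates 2 and 3 do, so the p-values compare these libraries and do not show that the knockdown effect varies between cultures. The fit called 3 of 10 members and 13% of all genes tested (5.06% higher, 7.96% lower). The knockdown minus control difference in pair 1 minus that in pairs 2 and 3 was -1.28 ± 0.107 log2 for SPRY2 (SE, adjusted p = 3.8e-17), -0.54 ± 0.096 for DUSP4 (adjusted p = 1.1e-05) and -0.43 ± 0.064 for SPRY4 (adjusted p = 1.4e-07). In these 3 genes control replicate 1 was the highest library. That library was also the highest for DUSP5, DUSP6, PHLDA1 and ETV5, whose interaction was not called. For PHLDA1 the interaction was -0.04 ± 0.056 (SE, adjusted p = 0.75), the smallest in size of the 10. NELFCD was also lower by more in pair 1, with an interaction of -0.52 ± 0.131 (SE, adjusted p = 0.0029), and its part in these differences was not tested.

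Replicate 1 differed from replicates 2 and 3 in most of the set. In edgeR's fit with group and replicate 1 as terms, 7 of 10 members were higher and SPRED2 was lower in replicate 1, where 31.6% of all genes were higher and 30.2% lower. PHLDA1 was 3.04-fold higher (log2 1.60 ± 0.047, SE, adjusted p = 4.6e-11) and SPRY4 2.54-fold (1.35 ± 0.078, adjusted p = 4.0e-08). SPRY1 (0.65), DUSP5 (0.64), DUSP4 (0.41), DUSP6 (0.38) and ETV5 (0.18) were the other log2 rises, and SPRED2 differed by -0.20. SPRY2 (0.76 ± 0.336, SE, adjusted p = 0.13) and SPRED1 (-0.14, adjusted p = 0.075) did not pass. The median over the members was 0.52 on the log2 scale, and 0.03 over all genes tested. The labels name no batch, and 2 RNA extraction kits were used without saying for which library.

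**Figure D3:**
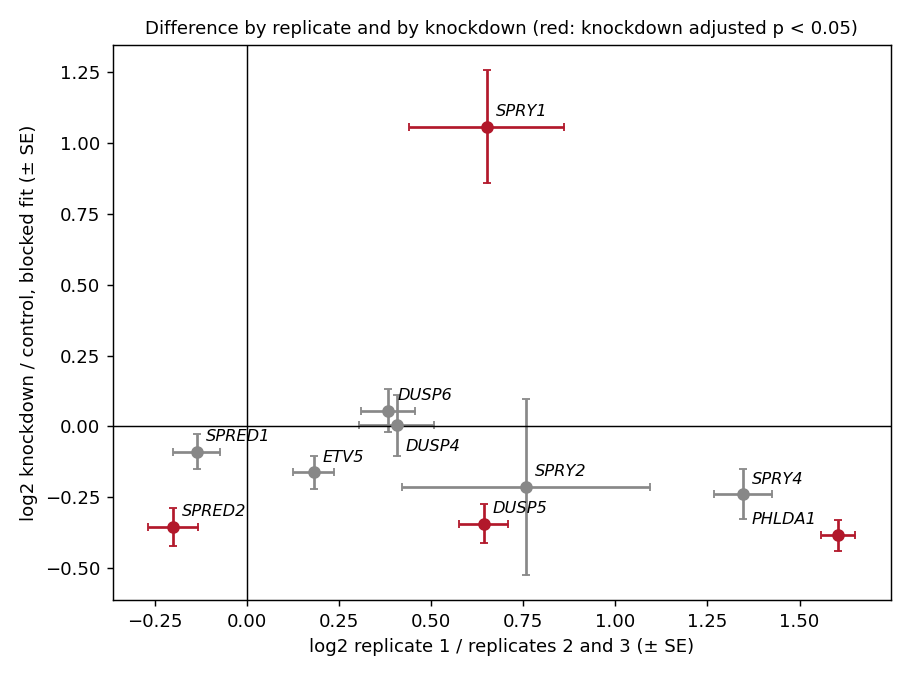
Each of the 10 genes by its log2 ratio of replicate 1 to replicates 2 and 3 (horizontal) and of knockdown to control in the blocked fit (vertical), with SE bars. PHLDA1 and SPRY4 lie far to the right with knockdown values of -0.38 and -0.24, and SPRY1 stands alone at the top.

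The other genes of the pathway were read from lists of its components. Of 16 other feedback regulators 14 were tested, and 2 rose and 2 fell in edgeR's blocked fit, where 5.48% of all genes rose and 8.01% fell. SPRED3, a SPRED relative, rose by 0.57 log2 (adjusted p = 0.042), with 15.7 ± 1.48 CPM in controls and 23.5 ± 5.40 CPM in knockdowns (SD, n = 3). PEA15, which holds ERK in the cytoplasm, rose from 337 to 482 CPM (0.52, adjusted p = 0.0096). RASAL2, a RAS GTPase activator, fell from 98.4 to 73.8 CPM (-0.41, adjusted p = 0.0054), and ERRFI1, a feedback inhibitor of the EGF receptor, fell from 368 to 277 CPM (-0.34, adjusted p = 0.044). The nuclear phosphatase DUSP1 (-0.15, adjusted p = 0.32) and the RAF inhibitor PEBP1 (0.13, adjusted p = 0.19) did not pass. Pair 1 differed most for SPRED3 (1.07, 0.30 and 0.32 log2 in pairs 1 to 3), PEA15 (0.84, 0.34 and 0.39) and ERRFI1 (-0.66, -0.16 and -0.20), while RASAL2 was alike in all 3 (-0.37, -0.46 and -0.40). The list median was 0.05 log2.

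Of 29 tested cascade genes, from RAS and its adaptors to ERK and the kinases and transcription factors it acts on, 4 fell and 0 rose, with a list median of -0.11 log2 (8.01% of all genes fell and 5.48% rose). MAPK3, which encodes ERK1, had the largest fall. It was at 48.0, 27.1 and 26.9 CPM in controls and 18.01, 11.3 and 14.1 CPM in knockdowns, so the groups did not overlap, and its log2 fold change was -1.21 ± 0.113 (SE, edgeR blocked adjusted p = 0.00067). RPS6KA1, an ERK-activated kinase, fell from 41.9 to 22.6 CPM (-0.90, adjusted p = 0.0087). FRS2, the FGF receptor adaptor, fell from 36.1 to 22.3 CPM (-0.70, adjusted p = 0.0021). RASA1, a RAS GTPase activator, fell from 90.01 to 59.4 CPM (-0.59, adjusted p = 0.0035), and 14.7% of its exonic bases overlap another gene. Pair 1 had the larger fall for RPS6KA1 (-1.409, -0.778 and -0.525 log2 in pairs 1 to 3) and RASA1 (-0.796, -0.524 and -0.456). FRS2 was more alike across pairs (-0.765, -0.652 and -0.68). The phosphatase PTPN11 (0.01, adjusted p = 0.93) and MAP2K2 (0.03, adjusted p = 0.80) did not pass. Without the block the adjusted p in edgeR was 0.58 for MAPK3, 0.53 for RPS6KA1, 0.64 for FRS2 and 0.53 for RASA1.

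Among 15 receptor genes 9 were tested, and MET and ERBB2 fell, where 8.01% of all genes did. MET, the hepatocyte growth factor receptor, had a blocked log2 fold change of -0.38 in edgeR (adjusted p = 0.031), from 199 ± 26.5 CPM in controls against 157 ± 45.9 CPM in knockdowns (SD, n = 3). ERBB2 went from 63.2 to 49.3 CPM (-0.35, adjusted p = 0.014). Pair 1 had the larger fall for MET (-0.696, -0.273 and -0.185 log2 in pairs 1 to 3), while ERBB2 differed by -0.407, -0.269 and -0.383. AXL (-0.17, adjusted p = 0.078) and EGFR (-0.31, adjusted p = 0.071) did not pass. The receptor median was -0.17 log2.

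Other ERK target genes moved in both directions. Of 18 tested, 6 fell and 2 rose in edgeR's blocked fit, with a median of -0.18 log2, where 8.01% of all genes fell and 5.48% rose. Cyclin D1 (CCND1) fell from 721.5 to 386 CPM (-0.96, adjusted p = 0.0036) and TNFRSF12A, the TWEAK receptor, from 159.5 to 98.3 CPM (-0.71, adjusted p = 0.0012). The zinc finger factor EGR1 was at 849, 75.95 and 73.3 CPM in controls and 562, 41.1 and 39.8 CPM in knockdowns, a blocked log2 fold change of -0.77 (adjusted p = 0.00078). As with PHLDA1, replicate 1 was far higher in both groups and the knockdown was lower within each number. PHLDA2, a relative of PHLDA1, rose from 65.1 to 100.4 CPM (0.63, adjusted p = 0.0016). LIF (-0.36), HMGA2 (-0.49), MCL1 (-0.23) and MYC (0.37), named after their values were seen, were the other calls. Pair 1 had the larger fall for CCND1 (-1.351, -0.758 and -0.771 log2 in pairs 1 to 3) and HMGA2 (-0.773, -0.341 and -0.351). For EGR1 it had the smaller fall (-0.595, -0.885 and -0.88), and PHLDA2 differed by 0.592, 0.521 and 0.776. FOSL1 (0.07, adjusted p = 0.39) and EPHA2 (0.02, adjusted p = 0.87) did not pass. In replicate 1, 11 of these 18 genes were higher and 4 lower, where 31.6% of all genes were higher and 30.2% lower. Without the block edgeR called 0 genes in each of these 4 lists. Opposite-strand genes share 10.3% of the exonic bases of CCND1, 7.41% of ERBB2 and 6.59% of PEA15.

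**Figure D4:**
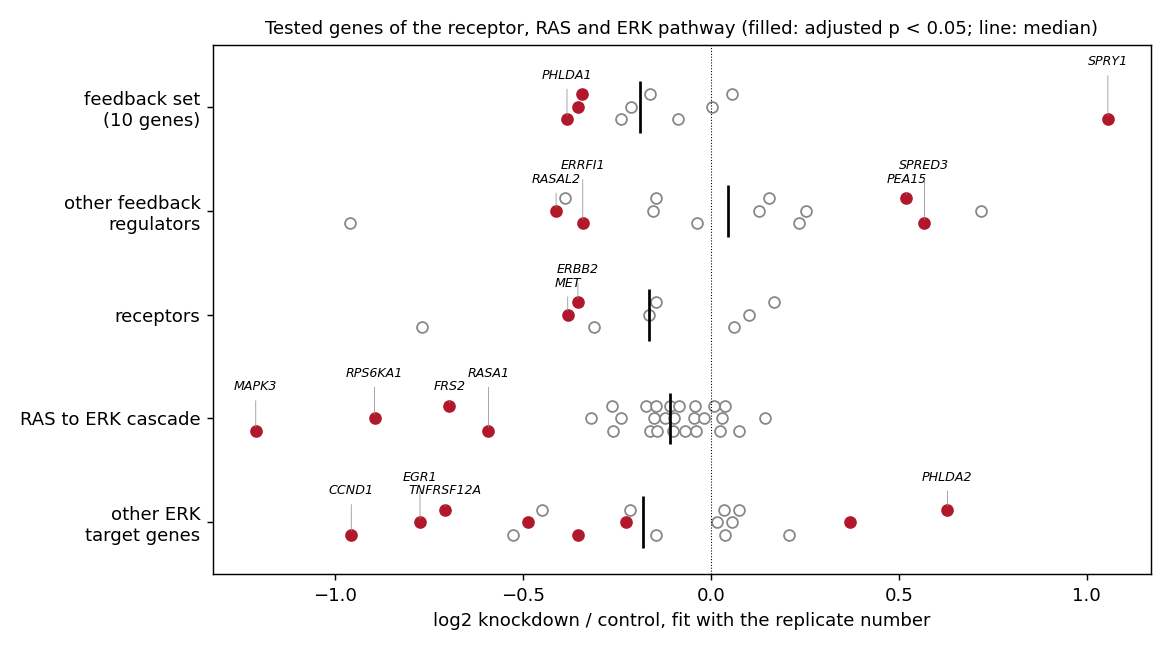
Log2 ratio of knockdown to control in edgeR's fit with the replicate number for the tested genes of 5 lists, filled red where the adjusted p was under 0.05 and with the list median as a line. MAPK3 lies farthest to the left among cascade genes, and SPRY1 farthest to the right of all.

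The protein-coding genes whose log2 CPM over the 6 libraries was most like that of DUSP6 were SLC3A2 (Pearson r = 0.9964), RECQL5 (0.9964), CRYZL1 (0.9961), IFITM2 (0.9959) and TRIM4 (0.9954). The measure is a description over 6 libraries that share the split of replicate 1 from replicates 2 and 3, so any gene with that split scores high. Their blocked log2 fold changes were 0.06 to 0.10, and none passed in edgeR, with adjusted p from 0.5 to 0.75.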

How the data were processed

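RNA-seq was deposited for 6 libraries. The authors deposited a table of raw counts per gene and a table of FPKM, per the file headers. Dividing a library's counts by gene length and 1 constant gave the deposited FPKM. Per the submitters' processing notes the build was hg38, and the aligner, counting program and strand setting are not given in the sources used here. Deposited gene lengths and coordinates of the members matched GENCODE release 29.

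R 4.3.3 was used with DESeq2 1.42.0, limma 3.58.1 and edgeR 4.0.16. The edgeR test on counts used filterByExpr on the groups, trimmed mean of M-values (TMM) scaling with factors of 0.989 to 1.034, robust quasi-likelihood F-tests and Benjamini-Hochberg adjustment over 14844 genes, with a call at an adjusted p under 0.05. The SE given with edgeR values was derived as the absolute log2 fold change divided by the square root of the F statistic. CPM were computed on TMM-scaled library sizes. Depth was 14306733 to 16656630 counts. The main design had no replicate term. Deviations from the group mean correlated across genes between libraries of equal number (0.864, 0.696 and 0.685 for numbers 1 to 3). Control 2 with knockdown 3 gave 0.693, so the measure matched replicate 1 across groups but did not pair numbers 2 and 3. No label states a pairing, and pairs 2 and 3 were taken by number only. edgeR's common coefficient of variation was 32.6% unblocked (4 residual degrees of freedom) and 8.17% blocked (2). Fits were also run on simulated counts with the same spread for all genes and the same planted change in every pair. That setting differs from these libraries, so it does not bear on the calls given here.

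Members and lists were chosen with earlier results of these data known, so no list test is given. Named were the 10 members, NELFCD and, per pathway list, up to 4 genes that passed with the largest change and up to 2 of highest level that did not, as well as 5 genes most like DUSP6. Motifs were searched in the 250 bases before each RefSeq start. Alternatives were other scalings, filters, tools, left-out libraries and pairs, and a replicate 1 term.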

Additional observations from a re-analysis of the deposited data

Results flagged for a closer look

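In 3 of the 10 genes the knockdown minus control difference of pair 1 stood apart from that of pairs 2 and 3 in edgeR's interaction fit. For SPRY2 the difference in pair 1 minus that in the other pairs was -1.28 log2 (adjusted p = 3.8e-17), and control replicate 1, at 125.4 CPM, was the library that stood apart. DUSP4 gave -0.54 (adjusted p = 1.1e-05), with a lower knockdown library in pair 1 and higher ones in pairs 2 and 3. For SPRY4 the value was -0.43 (adjusted p = 1.4e-07), and the knockdown library was the lower in all 3 pairs. Pair 1 is a single library per group, and these p-values rest on the spread between replicates 2 and 3 alone, so they compare libraries and not conditions, and 13% of all genes tested were called by the same test.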

How the results depend on the processing

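Of the 4 members called with the replicate block in edgeR, PHLDA1, SPRED2 and DUSP5 each passed in 8 of 9 alternatives and SPRY1 in 8 of 8; it was below the filter at a mean of at least 5 CPM. The exception was the fit without pair 2. SPRY4 gained a call with the block and no filter, DUSP4, SPRY2, SPRED1 and ETV5 with the block and without pair 1, and SPRY4 and ETV5 with replicate 1 as a batch term. With pairs left out in turn the blocked count of members called ran from 1 to 8, while other scalings, filters and tools gave 3 to 5. Shares over all genes are not given for the blocked fits with pairs left out, so that range is not particular to the members. Relative to the fit without a block, which called 0 genes and 0 members, the replicate block called 2002 genes and 4 members, replicate 1 as a batch term 3117 genes and 6 members, replicates 2 and 3 alone 3758 genes and 8 members, and DESeq2 151 genes and 0 members. Leaving out single libraries without a block gave counts from 0 to 0. The cause of these differences was not tested.

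Signs turned for members near 0 or with replicate 1 apart. DUSP4, at -0.03 without the block, was at 0.004 with the replicate block, 0.008 with limma-voom, 0.018 with upper-quartile scaling, 0.187 in replicates 2 and 3 alone and 0.003 with replicate 1 as a batch term. In the blocked fit it turned to -0.004 with DESeq2, -0.003 with limma-voom, -0.006 with RLE scaling and -0.011 with no filter. SPRY2 turned to 0.227 in replicates 2 and 3 alone. Leaving out single libraries without a block gave ranges of -0.149 to 0.23 for DUSP4, -0.579 to -0.084 for DUSP5, -0.06 to 0.222 for DUSP6, -0.579 to 0.251 for SPRY2, -0.817 to 0.385 for SPRY4 and -1.135 to 0.365 for PHLDA1, the last 3 positive without control replicate 1. Leaving out pairs with the block gave -0.111 to 0.187 for DUSP4 (-0.069 without pair 3), -0.012 to 0.123 for DUSP6 and -0.477 to 0.228 for SPRY2. The count of members that differed in replicate 1 ran from 6 to 8, and that of the interaction was 3 in each fit, in alternatives chosen after seeing the data. Depth limits SPRY1, at 28 to 106 counts per library.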
